A study of Mus musculus with 20 samples.

Results

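Imprinted genes are transcribed mainly or only from the copy inherited from 1 parent. The 39 mouse imprinted genes described here were listed by symbol, out of 24983 gene symbols in the deposited tables, and all 39 were found. By textbook knowledge 25 of them are expressed from the paternal copy and 13 from the maternal copy, while Gnas gives transcripts from both. The genes were followed in male germ cells of mice of a mixed strain background, sorted by green fluorescence, from which total RNA was sequenced after amplification. Heterozygous cells (Tex15+/-) kept 1 working copy of Tex15 and knockout cells (Tex15-/-) had none. Both genotypes were sampled at embryonic day 16.5 (e16.5), embryonic day 18.5 (e18.5) and postnatal day 2 (d2). Of the 20 libraries, each genotype has 3 from e16.5, 3 from e18.5 and 4 from d2. The controls are thus heterozygous rather than wild type, and the labels name neither the driver of the fluorescence nor the deleted part of Tex15. The series text speaks of biological triplicates, but no label says which libraries came from which animals or pools, so the p-values cover the spread among libraries, which may be technical.

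The parental copies of an imprinted region are told apart by DNA methylation laid down in the germ line. In most regions the mark is set in the egg, but in the H19-Igf2, Dlk1-Meg3 and Rasgrf1 regions it is set in fetal male germ cells, during the window that these ages cover, after the marks of the previous generation have been erased. TEX15 is known as a partner of the piRNA pathway, in which small RNAs guide DNA methylation to retrotransposons in fetal male germ cells, and the piRNA pathway is also known to be needed for methylation of the Rasgrf1 region. The 39 genes fall into 8 of these paternally methylated clusters (H19, Igf2, Rasgrf1, Dlk1, Rtl1, Meg3, Rian and Mirg) and 31 of other clusters. RefSeq (GRCm38.p6) placed 38 of the genes on 11 chromosomes, 18 on chromosome 7 and 5 on chromosome 12. Methylation was not measured here, and counts by gene symbol do not tell the parental copies apart. The parental copy named with each gene below is its textbook class. Whether that class holds in these germ cells, after the erasure of earlier marks, was not tested.

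Methylation in these regions falls on CpG pairs, so 4 promoters are printed with each CpG in capitals and all other bases in lower case. RefSeq held promoter entries (300 bases, 250 before and 50 after the start) for 30 of the 39 genes. The 4 were picked because the text below turns on their genes: Rasgrf1 and Zim1 for the knockout, Meg3 and Mest for the change with age. Each is written 5′ to 3′ on the gene's own strand, and together they show promoters with 26, 20, 13 and 17 CpG pairs.
Rasgrf1, chr9:89909525-89909824, plus strand: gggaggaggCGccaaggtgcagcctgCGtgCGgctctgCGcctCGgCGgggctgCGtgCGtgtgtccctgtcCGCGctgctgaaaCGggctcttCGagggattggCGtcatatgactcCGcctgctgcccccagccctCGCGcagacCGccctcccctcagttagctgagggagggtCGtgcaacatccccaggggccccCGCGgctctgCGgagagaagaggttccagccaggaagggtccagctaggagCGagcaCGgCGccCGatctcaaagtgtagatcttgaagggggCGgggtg
Zim1, chr7:6696383-6696682, minus strand: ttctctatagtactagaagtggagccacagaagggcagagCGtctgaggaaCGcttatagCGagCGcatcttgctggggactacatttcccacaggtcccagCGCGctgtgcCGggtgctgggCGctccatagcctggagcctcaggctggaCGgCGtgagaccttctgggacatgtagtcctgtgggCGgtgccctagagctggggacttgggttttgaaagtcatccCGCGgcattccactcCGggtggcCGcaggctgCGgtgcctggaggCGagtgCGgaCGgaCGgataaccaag
Meg3, the first of its 2 entries, chr12:109540746-109541045, plus strand: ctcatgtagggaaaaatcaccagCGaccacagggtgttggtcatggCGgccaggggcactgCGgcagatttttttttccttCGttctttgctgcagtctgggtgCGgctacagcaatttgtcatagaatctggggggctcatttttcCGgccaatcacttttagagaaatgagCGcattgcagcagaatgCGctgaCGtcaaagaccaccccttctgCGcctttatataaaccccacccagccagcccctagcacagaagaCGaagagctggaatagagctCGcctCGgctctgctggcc
Mest, the second of its 3 entries, chr6:30737800-30738099, plus strand: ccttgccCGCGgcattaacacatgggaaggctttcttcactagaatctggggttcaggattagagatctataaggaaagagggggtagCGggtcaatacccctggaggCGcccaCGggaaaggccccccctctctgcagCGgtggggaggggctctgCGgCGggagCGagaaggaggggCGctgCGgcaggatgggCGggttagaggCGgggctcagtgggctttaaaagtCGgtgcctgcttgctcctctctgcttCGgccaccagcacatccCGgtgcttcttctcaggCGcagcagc

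The middle values over the 44 promoter entries of the imprinted genes were 14 and 15 CpG pairs. The median over all 32851 entries of the same length was 7. The letters TGCCGC, the core of the motif that the imprint-protecting protein ZFP57 is known to bind when methylated, were searched on both strands. They stood in 11 of the 44 entries (25%) and in 11.6% of all entries. Some genes have several entries, and by gene the letters stood in 10 of the 30. The letters themselves hold a CpG pair, and these shares were not adjusted for the higher CpG number of the imprinted gene entries. Such a match is a description of the letters and not a bound site. The germline-methylated regions themselves lie outside many of these promoters.

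The libraries held 14.3 to 31.5 M (mega) counts, of which 7.78 to 14.2 M lay in genes. Levels are CPM, the count of a gene scaled to a gene-count total of 1 M after TMM scaling over all 20 libraries, and 1 count stood for 0.0684 to 0.130 CPM. Tex15 checked the labels. It lay at 612 to 2101 CPM in heterozygous libraries and at 1.70 to 5.33 CPM in 9 of the 10 knockout libraries, while knockout d2 replicate 2 held 101 CPM from 799 counts. The 8 germ cell markers summed to 3546 to 6701 CPM in every library, against 216 to 457 CPM for 17 stroma markers, 31.8 to 106 CPM for 11 Sertoli markers and 13.8 to 113 CPM for 7 Leydig markers. Insl3 of the Leydig list and Hbb-b1, Hba-a1 and Hba-a2 of the red blood cell list were at 0 in all 20 libraries. In bulk RNA, fewer cells of a type and less RNA per cell cannot be told apart.

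Together the 39 genes took 0.284% to 0.552% of the gene counts. Per kilobase of exon, the highest level in heterozygous cells belonged to Grb10, a growth-restraining adaptor of the insulin receptor. It held 215 ± 95.4 CPM per kb (SD, n = 3) at e16.5 and 391 ± 28.0 at e18.5. Peg10, a retrotransposon-derived gene known for its role in the placenta, came next with 79.6 ± 8.67 and 90.9 ± 13.2 CPM per kb, and its libraries lay below every Grb10 library at both ages. At d2 the order was Mest (123 ± 11.6 CPM per kb, n = 4), Igf2 (89.7 ± 22.3) and Grb10 (82.7 ± 31.3), and these 3 overlapped in their libraries. Snrpn, Magel2, Peg12 and Airn lay at or under 0.424 CPM per kb at each age. Those 4 were too low to test between genotypes within an age, as was Kcnq1 at e16.5 and d2. In the fit of all ages Snrpn and Peg12 were too low. In RefSeq the span of Airn overlaps that of Igf2r and the span of Kcnq1ot1 that of Kcnq1, and reads where spans overlap can be split between symbols or left out, so a low value of Airn or Kcnq1 may not be its full level. Snrpn is known to share a transcript with Snurf, which the tables list under its own symbol, so the same holds for Snrpn.

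The first question was whether loss of Tex15 changed the imprinted genes at each age. At e16.5 0 of the 34 genes tested passed (edgeR, Benjamini-Hochberg adjusted p under 0.05), where 0.00610% of all genes did, and 6 had an unadjusted p under 0.05, where 7.73% of all genes did. At e18.5 3 of 35 passed (8.57%) and all 3 fell, where 2.33% of all genes passed and 0.271% passed as lower. At the unadjusted level 6 had a p under 0.05, where 11.3% of all genes did. The 3 that passed the adjusted p were Rasgrf1, Cdkn1c and Zim1. At d2 0 of 34 passed, where 2.80% of all genes did, and 7 had an unadjusted p under 0.05, where 16.2% of all genes did. The median log2 fold change of the genes tested, knockout over heterozygous, was -0.08 (e16.5), -0.06 (e18.5) and -0.05 (d2), beside -0.01, -0.01 and -0.02 over all genes. Leaving out 1 library moved the median, to between -0.24 (without knockout replicate 3) and -0.078 at e16.5 and between -0.13 (without heterozygous replicate 1) and -0.080 at e18.5. At d2 it ran from -0.091 without knockout replicate 2 to 0.016 without heterozygous replicate 3, where the sign turned. DESeq2 called 0 imprinted genes at e16.5 and 2 at d2, Rasgrf1 (adjusted p = 0.0471) and Dlk1 (adjusted p = 0.0400), both lower. Of all genes it called 22 of 15746 at e16.5 and 770 of 15340 at d2, more than edgeR did. Without knockout d2 replicate 2, the library with Tex15 reads, 0 passed at d2 (edgeR).

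**Figure D1:**
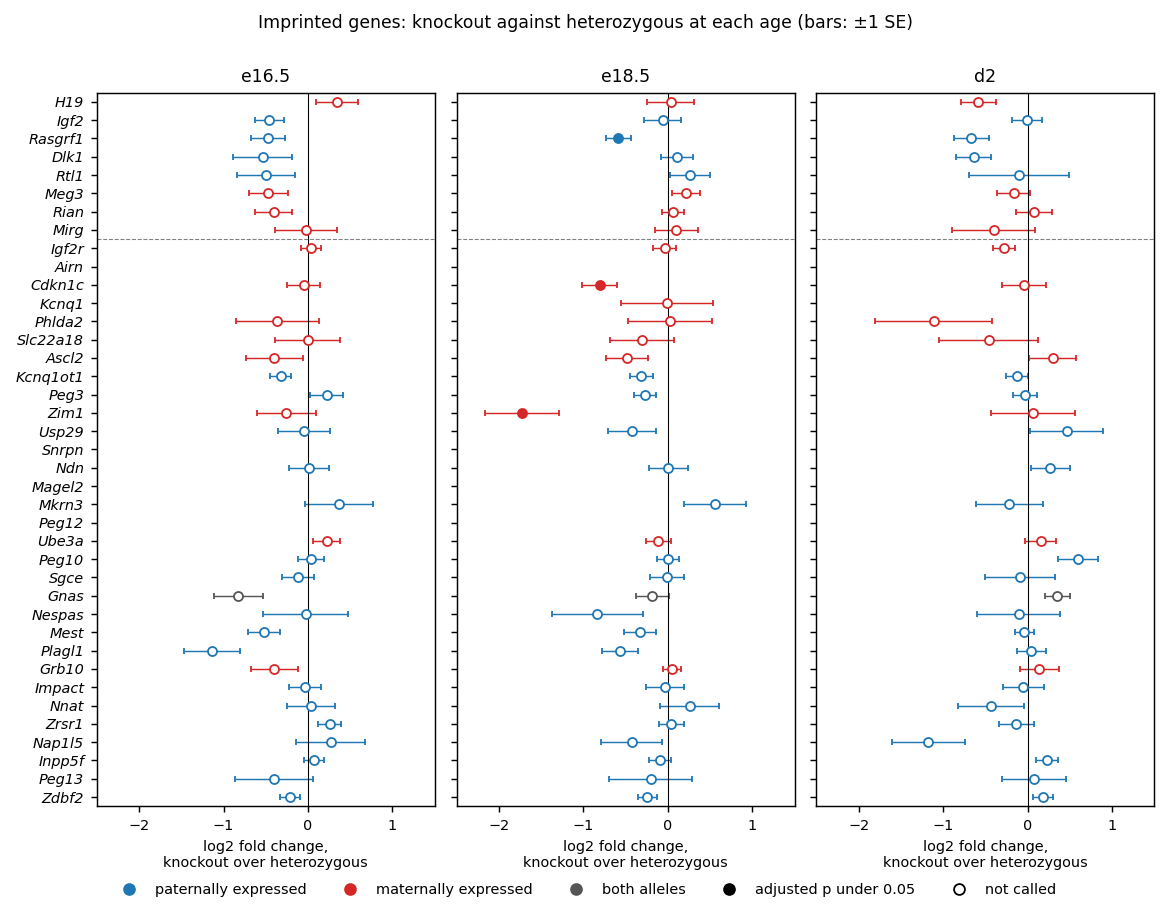
Log2 fold change of each imprinted gene, knockout over heterozygous, at e16.5, e18.5 and d2 (points, with bars of 1 SE). Filled points passed the adjusted p of 0.05: Rasgrf1, Cdkn1c and Zim1, at e18.5 only. The dashed line parts the 8 genes of paternally methylated clusters (top) from the other 31, and genes too low to test have no point.

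Rasgrf1 stood lower in knockout than in heterozygous cells at each age in its mean. It encodes a guanine nucleotide exchange factor for Ras and is expressed from the paternal copy. At e16.5 it held 45.1, 55.8 and 64.5 CPM in the heterozygous libraries and 45.5, 30.3 and 45.2 CPM in the knockout ones, a log2 fold change of -0.47 (SE 0.20, adjusted p = 0.641, edgeR). The genotypes overlapped there by 1 library, heterozygous replicate 1. At e18.5 it held 70.4, 74.9 and 76.8 CPM in heterozygous and 52.9, 52.6 and 42.8 CPM in knockout libraries. All 3 knockout libraries lay below every heterozygous one, and Rasgrf1 fell 1.5-fold (log2 fold change -0.59, SE 0.15, adjusted p = 0.0467). At d2 the values were 124, 58.4, 89.0 and 122 CPM against 53.6, 70.0, 68.8 and 56.5 CPM (log2 fold change -0.67, SE 0.21, adjusted p = 0.0979). Heterozygous replicate 2 was the low one and lay within the knockout range. Without it the adjusted p was 0.00677, and in 1 fit of all ages the d2 fold change passed at an adjusted p of 0.0434. It did not pass without any other single library (adjusted p of 0.0843 to 0.286) or with the replicate block (adjusted p = 0.234).

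The call of Rasgrf1 at e18.5 ended when any 1 of the 6 libraries was left out (adjusted p of 0.0857 to 0.227) and in the fit of all ages (adjusted p = 0.387). The knockout effect averaged over the 3 ages was therefore also taken from that fit, a contrast added after these values were seen. For Rasgrf1 it was -0.56 on the log2 scale (SE 0.12, adjusted p = 0.00884, edgeR), with 20 libraries, and Rasgrf1 was the 1 imprinted gene of 37 that passed, where 1.74% of all genes did and 0.354% did as lower. When each of the 20 libraries was left out in turn, Rasgrf1 passed every time (adjusted p between 0.000415 and 0.0276). The knockout effects of 2 ages were also tested against each other, and 0 of 37 imprinted genes passed in each of the 3 pairs (edgeR). For e18.5 against e16.5, 0.0967% of all genes passed, and 1 imprinted gene had an unadjusted p under 0.05, as did 6.40% of all genes. For d2 against e18.5, 0.526% passed, and 3 imprinted genes and 13.5% of all genes had such a p. For d2 against e16.5, 0.800% passed, and 5 imprinted genes and 11.6% of all genes had such a p. DESeq2 called 0, 0 and 1 imprinted genes in these pairs. RMER4B, a repeat name counted over all its copies and present in the Rasgrf1 imprinting region, was read as a value beside it. On the same CPM scale it held 2076 to 2947 (e16.5), 2394 to 3536 (e18.5) and 1519 to 2466 (d2), and the genotypes overlapped at each age.

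**Figure D2:**
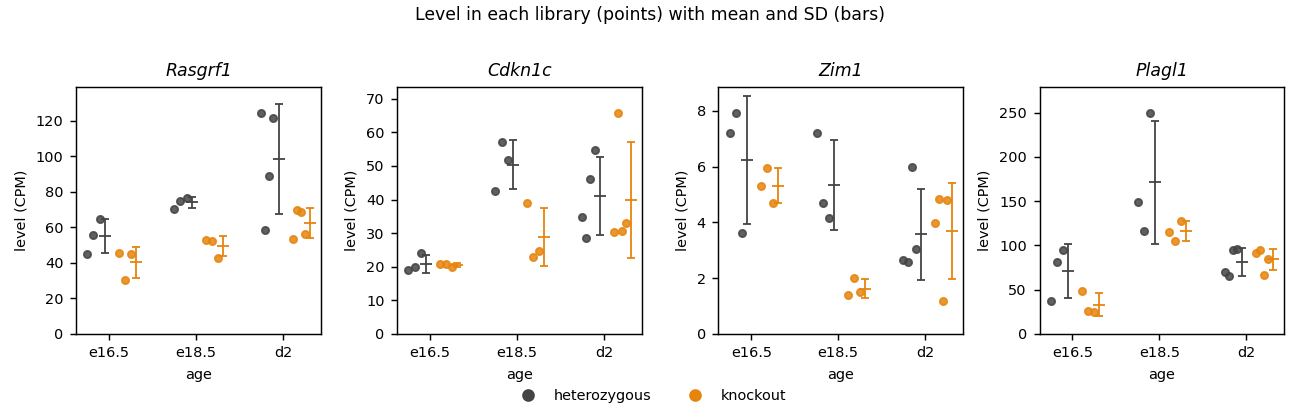
Level (CPM) of Rasgrf1, Cdkn1c, Zim1 and Plagl1 in each library by age and genotype (points), with the mean and SD of each group (bars). At e18.5 the knockout points of Rasgrf1 (42.8 to 52.9 CPM), Cdkn1c and Zim1 lie below all heterozygous points, while at d2 those of Cdkn1c and Zim1 overlap.

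Cdkn1c, a cyclin-dependent kinase inhibitor (p57) that holds cells out of division, is expressed from the maternal copy. At e18.5 it held 42.4, 57.1 and 51.7 CPM in heterozygous and 38.9, 23.0 and 24.8 CPM in knockout libraries, with no overlap. It fell 1.75-fold (log2 fold change -0.81, SE 0.21, adjusted p = 0.0407, edgeR). Its e16.5 means were 20.9 ± 2.67 and 20.5 ± 0.608 CPM (heterozygous and knockout, SD, n = 3) and its d2 means 41 ± 11.7 and 39.9 ± 17.2 CPM (n = 4), and neither age passed. The d2 direction changed with the library left out, from -0.40 without knockout replicate 2 to 0.14 without heterozygous replicate 4. The e18.5 call held without replicate 1 of either genotype. It ended when any of the other 4 libraries was left out (adjusted p of 0.0727 to 0.251) and in the fit of all ages (adjusted p = 0.278).

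Zim1, a zinc finger gene beside Peg3 expressed from the maternal copy, was the third. It rested on few reads: 105, 60 and 44 counts in heterozygous and 17, 21 and 17 in knockout libraries at e18.5. These made 7.19, 4.71 and 4.16 against 1.38, 2.01 and 1.48 CPM, with no overlap, a 3.31-fold fall (log2 fold change -1.73, SE 0.44, adjusted p = 0.0428, edgeR). Of the 6 fits without 1 library, the call held only without heterozygous replicate 3. The other 5 gave an adjusted p of 0.0872 to 0.229, and the fit of all ages 0.124. Its e16.5 means were 6.24 ± 2.3 and 5.31 ± 0.625 CPM (heterozygous and knockout, SD, n = 3) and its d2 means 3.56 ± 1.63 and 3.69 ± 1.72 CPM (n = 4), and neither age passed.

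Markers of other cells at e18.5 are given beside these 3 falls. The sum of the 8 macrophage and white blood cell markers was 30.2 to 42 CPM in the heterozygous libraries and 89.1 to 110 CPM in the knockout ones, with no overlap. Of the 5 tested, Mrc1 and Adgre1 rose. Csf1r, Cd68 and Ptprc did not pass, and C1qa, C1qb and Tyrobp had a median under 1 CPM. The stroma sums were 404 to 453 and 404 to 415 CPM, with Dcn called higher and Pdgfrb lower of 15 tested. Sertoli sums were 60.9 to 67.7 and 58.3 to 66.2 CPM. The part of these markers in the falls of Rasgrf1, Cdkn1c and Zim1 was not tested.

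The 8 genes of the paternally methylated clusters were then read apart from the 31 others. Their median log2 fold change was -0.46 (e16.5), 0.08 (e18.5) and -0.28 (d2), against -0.04, -0.19 and -0.04 for the tested genes of other clusters, and the difference between the lists was not tested. Below 0 were 7, 2 and 7 of the 8 at these ages. Over all genes tested it was 8380 of 16384, 9270 of 18075 and 7999 of 15343. Of the 8, 5 are of the Dlk1-Meg3 cluster. Only 1 of the 8 passed, Rasgrf1 at e18.5, where 2.33% of all genes passed and 0.271% passed as lower. The stroma markers at e16.5 had a median log2 fold change of -0.63 over 15 tested, where their sums were 249, 420 and 428 CPM (heterozygous) and 228, 266 and 216 CPM (knockout). The low heterozygous library for stroma was replicate 1, which was also the lowest of its group for Igf2, Rasgrf1, Dlk1, Rtl1, Meg3, Rian and Mirg. H19 went the other way: its lowest was replicate 3 (20.9 CPM), the library with the highest stroma sum, against 39.8 CPM in replicate 1. At e16.5 the Sertoli sums did not overlap, at 50.8 to 56.3 CPM (heterozygous) and 31.8 to 42 CPM (knockout), with a median log2 fold change of -0.56 over 8 markers tested. The Leydig median was -1.61 over 6 tested. The Leydig sums overlapped, at 26.1, 113 and 32.1 CPM (heterozygous) and 21.6, 29.5 and 29.0 CPM (knockout). The high value was that of heterozygous replicate 2 alone. None of these markers passed at e16.5. At d2 the germ cell markers Dazl and Sycp3 rose in the knockout (log2 fold changes 0.61 and 0.63, adjusted p = 0.0349 and 0.00569, edgeR). Over the 8 germ cell markers tested the median was 0.11, with 6 above 0 and 2 below, the lowest at -0.72. The germ cell sums were 3546 to 3935 CPM (heterozygous) and 3852 to 5276 CPM (knockout). Of 8 Sertoli markers tested at d2, Sox9 fell (log2 fold change -1.25, adjusted p = 0.0188, edgeR), while 5 lay above 0 and the median was 0.07. The Sertoli sums overlapped at d2 (85.6 to 106 CPM heterozygous and 77.5 to 106 CPM knockout), as did the stroma sums. The part of these other cells in the values of the 8 genes was not tested.

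H19, a long noncoding RNA expressed from the maternal copy, and Igf2, a fetal growth factor expressed from the paternal copy, share 1 methylated control region. H19 held 39.8, 45.6 and 20.9 CPM in heterozygous and 39.1, 52.7 and 44.9 CPM in knockout libraries at e16.5, and 14, 11.5 and 10.5 against 12.3, 8.52 and 16.0 CPM at e18.5. At d2 it held 59.0, 111, 64.2 and 47.4 CPM against 50.7, 47.6, 45.3 and 44.9 CPM, a log2 fold change of -0.58 (SE 0.21) with an adjusted p of 0.154. Only heterozygous replicate 4 lay within the knockout range, and without it the adjusted p was 0.0488. Igf2 held 139, 188 and 214 against 147, 114 and 139 CPM at e16.5 and 124, 106 and 221 against 139, 128 and 164 CPM at e18.5. Its d2 values were 460, 619, 469 and 334 against 561, 309, 493 and 509 CPM. Igf2 overlapped between genotypes at all 3 ages, and its log2 fold changes were -0.46, -0.06 and -0.01, none of which passed.

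In the Dlk1-Meg3 cluster the paternal copy gives Dlk1, a Notch-related membrane protein that restrains differentiation, and Rtl1, a retrotransposon-derived gene known for its role in the placenta. Dlk1 held 10.1, 20.2 and 32.3 CPM in heterozygous and 15.7, 11.0 and 17.1 CPM in knockout libraries at e16.5, and 28.5, 26.5 and 33.0 against 27.4, 31.4 and 36.3 CPM at e18.5. At d2 it held 34.8, 38.7, 27.2 and 32.6 against 23.3, 21.7, 16.8 and 24.1 CPM, with every knockout library below every heterozygous one. The d2 log2 fold change was -0.64 (SE 0.21, adjusted p = 0.110, edgeR). Rtl1 held 12.9, 17.2 and 19.3 against 13.1, 5.67 and 16.7 CPM at e16.5, 13.7, 18.2 and 16.7 against 15.3, 24.9 and 18.3 CPM at e18.5, and 8.0, 1.89, 0.922 and 4.05 against 4.62, 4.70, 3.38 and 1.26 CPM at d2. Its genotypes overlapped at all 3 ages.

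The maternal copy of that cluster gives the long noncoding RNAs Meg3, Rian and Mirg, whose spans in RefSeq hold 1, 3 and 10 miRNA hairpins. Meg3 held 121, 164 and 237 CPM in heterozygous and 140, 94.8 and 148 CPM in knockout libraries at e16.5, then 238, 337 and 204 against 322, 339 and 242 CPM at e18.5. At d2 Meg3 was at 45.2, 39.9, 71.1 and 69.8 against 50.9, 56.3, 49.7 and 45.1 CPM. Rian held 74.2, 104 and 150 against 88.7, 72.2 and 90.6 CPM at e16.5, 163, 167 and 151 against 190, 166 and 145 CPM at e18.5, and 44.9, 34.6, 62.5 and 82.5 against 56.0, 63.4, 57.1 and 60.2 CPM at d2. Both overlapped between genotypes at every age. Mirg held 7.48, 9.77 and 11.5 against 7.29, 5.76 and 15.6 CPM at e16.5, 12.6, 13.2 and 10.2 against 13.2, 13.9 and 11.7 CPM at e18.5, and 6.58, 2.10, 6.22 and 3.94 against 4.94, 5.08, 2.86 and 1.43 CPM at d2, again with overlap. Over the 5 genes of the cluster the log2 fold changes ran from -0.54 to -0.02 (e16.5), 0.06 to 0.26 (e18.5) and -0.64 to 0.07 (d2), and 0 of 5 passed at any age. The span of Rtl1 overlaps that of Meg3 and that of Rian, while Meg3 and Rian do not overlap each other. The sources do not say whether counting used strand, so reads of Rtl1 can stand under Meg3 or Rian, and theirs under Rtl1.

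**Figure D3:**
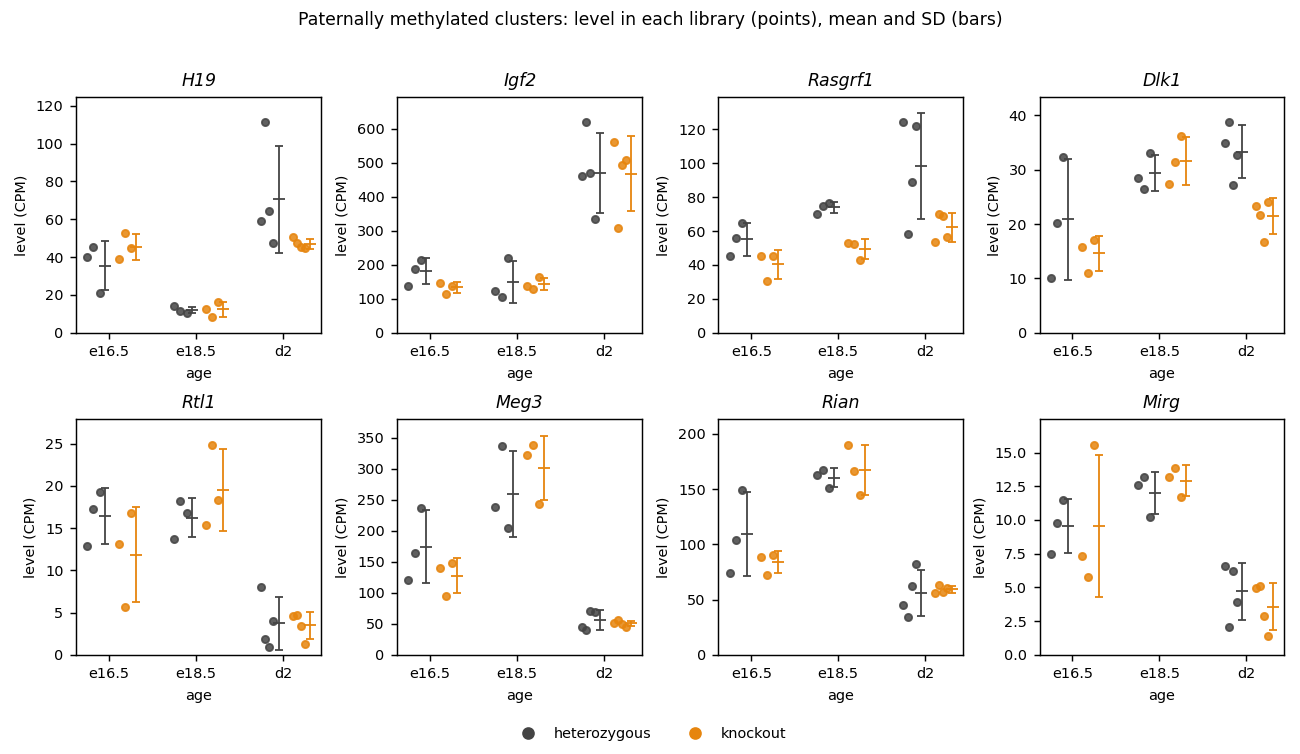
Level (CPM) of the 8 genes of paternally methylated clusters in each library by age and genotype (points), with the mean and SD of each group (bars). Knockout points lie below all heterozygous points for Rasgrf1 at e18.5 and Dlk1 at d2, while Rtl1, Meg3, Rian and Mirg are at their lowest at d2 in both genotypes.

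Among the other clusters, the highest gene of each by CPM is given by its group means, heterozygous before knockout (± SD, n = 3, 3 and 4 per group in the order of the ages). CPM is not scaled by length. Per kilobase Kcnq1ot1, with 93.1 kb of exon, held 1.61 CPM per kb in heterozygous cells at e16.5, below Cdkn1c of its cluster (10.8). Igf2r, the receptor that clears IGF2, lay at 263 ± 10.4 and 273 ± 14.6 CPM, then 221 ± 38.5 and 216 ± 10.9 CPM, and last 298 ± 29.2 and 246 ± 40.7 CPM. Kcnq1ot1, a long noncoding RNA that silences its neighbours on the paternal copy, lay at 150 ± 10.3 and 122 ± 7.31 CPM, then 226 ± 32.9 and 183 ± 23.7 CPM, and last 217 ± 14.9 and 200 ± 32.9 CPM. At e16.5 its knockout libraries lay below every heterozygous one, with a log2 fold change of -0.32 (adjusted p = 0.629, edgeR). Peg3, a zinc finger gene of the paternal copy, lay at 273 ± 65.2 and 323 ± 72.2 CPM, then 165 ± 17.6 and 137 ± 8.73 CPM, and last 246 ± 30.4 and 241 ± 50.6 CPM. Ube3a, a ubiquitin ligase of the Snrpn cluster, lay at 61.4 ± 8.71 and 72.7 ± 9.18 CPM, then 69.6 ± 1.82 and 64.5 ± 7.16 CPM, and last 51.6 ± 11.5 and 57.4 ± 10 CPM. None of these 4 passed at any age.

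Peg10 lay at 531 ± 57.8 and 553 ± 97.4 CPM, then 606 ± 88.1 and 609 ± 98.6 CPM, and last 183 ± 40.2 and 278 ± 111 CPM. Its d2 log2 fold change was 0.60 (adjusted p = 0.221, edgeR) and 0.30 without knockout replicate 2. Gnas, which encodes the stimulatory G protein subunit, lay at 32.1 ± 13.9 and 18.4 ± 4.72 CPM, then 41.6 ± 4.11 and 36.7 ± 9.3 CPM, and last 87.5 ± 12.5 and 112 ± 14 CPM. Its log2 fold change was -0.83 at e16.5 (adjusted p = 0.629) and 0.35 at d2 (adjusted p = 0.228). The difference between these 2 effects did not pass in edgeR (adjusted p = 0.0911) but did in DESeq2 (adjusted p = 0.0297) and without heterozygous e16.5 replicate 3 (adjusted p = 0.0267). Neither gene passed in a knockout comparison.

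Plagl1, a zinc finger factor that restrains proliferation and is expressed from the paternal copy, had the lowest log2 fold change of the imprinted genes tested at e16.5. It held 37.1, 80.9 and 94.9 CPM in heterozygous and 48.2, 25.9 and 24.6 CPM in knockout libraries (log2 fold change -1.13, SE 0.33, adjusted p = 0.629, edgeR). Heterozygous replicate 1 was the overlapping library, and without it the log2 fold change was -1.44 with an adjusted p of 0.0369. That library also held the lowest stroma sum of its group. At e18.5 Plagl1 held 149, 116 and 249 against 115, 105 and 127 CPM (log2 fold change -0.56, adjusted p = 0.288). At d2 it held 70.1, 64.9, 94.2 and 96.1 against 90.9, 94.1, 66.7 and 84.4 CPM, with overlap. Averaged over ages its log2 fold change was -0.54 (adjusted p = 0.129), and it passed with DESeq2 (adjusted p = 0.0361), without heterozygous e16.5 replicate 1 (0.0144) and without knockout e16.5 replicate 1 (0.0284).

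Mest, a hydrolase-like gene of the paternal copy, lay at 59.3 ± 4.71 and 42 ± 10.5 CPM, then 163 ± 61.1 and 130 ± 4.36 CPM, and last 343 ± 32.3 and 335 ± 27.8 CPM. At e16.5 every knockout library of Mest lay below every heterozygous one (log2 fold change -0.52, adjusted p = 0.629, edgeR). Grb10 lay at 1102 ± 490 and 849 ± 267 CPM, then 2003 ± 143 and 2076 ± 206 CPM, and last 424 ± 160 and 469 ± 96.5 CPM. Zdbf2, a paternally expressed zinc finger gene, lay at 347 ± 19.3 and 305 ± 22.1 CPM, then 409 ± 20.4 and 346 ± 19.6 CPM, and last 230 ± 22 and 262 ± 16.4 CPM. Its knockout libraries lay below every heterozygous one at both embryonic ages (log2 fold changes -0.21 and -0.24, adjusted p = 0.673 and 0.415). Zrsr1, a relative of a splicing factor, lay at 79.5 ± 4.06 and 96.5 ± 6.04 CPM, then 82.2 ± 14.3 and 84.9 ± 4.39 CPM, and last 47.9 ± 12.9 and 43.8 ± 5.27 CPM. None of the 4 passed at any age.

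Inpp5f, an inositol phosphatase, lay at 165 ± 5.77 and 176 ± 11.5 CPM, then 192 ± 23.6 and 180 ± 18.8 CPM, and last 179 ± 27.7 and 210 ± 21.8 CPM. Impact, a regulator of translation, had group means of 21.1 to 26.4 CPM over the 6 groups. Nnat, a small membrane protein, had group means of 4.96 to 8.0 CPM, and Peg13, a noncoding RNA, 1.79 to 13.2 CPM. Nap1l5, a relative of nucleosome assembly proteins, had group means of 2.45 to 6.87 CPM. At d2 its knockout libraries (2.69, 3.43, 2.08 and 1.60 CPM) lay below every heterozygous one (4.25, 5.60, 6.45 and 5.74 CPM), with a log2 fold change of -1.18 (adjusted p = 0.160, edgeR). None of these 5 passed at any age.

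The remaining genes are given by their range over the 20 libraries. Ascl2, a transcription factor gene of the Kcnq1 cluster, held 5.73 to 23.5 CPM and Ndn, known for its role in neurons, 12 to 26.5 CPM. Sgce held 3.01 to 28.9 CPM, Usp29 2.59 to 12.7, Mkrn3 2.94 to 10.2, Slc22a18 1.14 to 6.87 and Nespas 0.959 to 5.46 CPM. Phlda2 held 0.430 to 4.21 CPM and Airn 0.0868 to 3.54 CPM. The highest level was 5.11 CPM for Kcnq1, 1.62 CPM for Magel2, 1.16 CPM for Peg12 and 0.336 CPM for Snrpn. Kcnq1 was at 0 in 1 library, Magel2 in 3, Peg12 in 2 and Snrpn in 10, and a count of 0 allows up to 0.205 to 0.390 CPM (3 counts). None of these passed in a knockout comparison where it was tested.

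Counted by overlap, 3 of the 34 genes tested at e16.5 (Kcnq1ot1, Mest and Zdbf2) had every knockout library below every heterozygous one and 2 (Ube3a and Zrsr1) had it above, 14.7% in all. Of all genes 13.3% had no overlap, 6.07% below and 7.21% above. At e18.5 it was 6 of 35 below (Rasgrf1, Cdkn1c, Zim1, Ascl2, Peg3 and Zdbf2) and 0 above (17.1%), where 16.8% of all genes had no overlap and 7.34% lay below. At d2 it was 2 of 34 below (Dlk1 and Nap1l5) and 0 above (5.88%), where 9.71% of all genes had no overlap and 4.33% lay below. The paternally expressed genes had medians of -0.05, -0.09 and -0.05 at the 3 ages and the maternally expressed ones -0.15, -0.01 and -0.10. Of the 21 paternally expressed genes tested at e18.5, 1 fell, and of the 13 maternally expressed ones 2 did, where 0.271% of all genes passed as lower.

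Genes that set, protect or erase imprints were read from the same fits, as a list of 29 that includes 4 piRNA genes. Of 28 tested, 0 passed at each age, with medians of 0.13, 0.02 and -0.01, where 0.00610%, 2.33% and 2.80% of all genes passed. At the unadjusted level 2, 0 and 5 had a p under 0.05, where 7.73%, 11.3% and 16.2% of all genes did. The 3 with the smallest p at e16.5 were Piwil2, a piRNA-binding PIWI protein (814 ± 72.7 and 1035 ± 33.2 CPM, adjusted p = 0.629), Setdb1, an H3K9 methyltransferase (189 ± 45.4 and 258 ± 31.5 CPM, adjusted p = 0.636), and Uhrf1, which brings DNMT1 to replicating DNA (15.2 ± 3.42 and 21.3 ± 3.97 CPM, adjusted p = 0.653). At e18.5 they were the piRNA factor Mael (1529 ± 176 and 1311 ± 113 CPM, adjusted p = 0.450), the methylcytosine oxidase Tet3 (259 ± 26.5 and 308 ± 25.7 CPM, adjusted p = 0.458) and the H3K36 methyltransferase Nsd1 (1403 ± 79.3 and 1568 ± 60.2 CPM, adjusted p = 0.605). At d2 they were the chromatin protein Smchd1 (556 ± 83.0 and 690 ± 44.7 CPM, adjusted p = 0.169), the imprint-protecting Zfp445 (65.0 ± 9.59 and 84.4 ± 4.10 CPM, adjusted p = 0.210) and the H3K9 methyltransferase Ehmt2 (105 ± 31.5 and 73.9 ± 24.2 CPM, adjusted p = 0.259).

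The second question was how the imprinted genes changed with age in heterozygous cells. The labels name no batch, so age and preparation or sequencing run cannot be told apart, and the 3 pairs of ages share libraries. From e16.5 to e18.5, 4 of 37 genes tested rose and 2 fell (16.2%), where 17.8% of all genes passed (7.62% higher and 10.1% lower). From e18.5 to d2, 7 rose and 13 fell (54.1%), where 51.1% of all genes passed (24.1% higher and 27.0% lower). From e16.5 to d2, 10 rose and 9 fell (51.4%), where 43.1% of all genes passed (20.5% higher and 22.7% lower). The first 2 shares were near those of all genes.

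**Figure D4:**
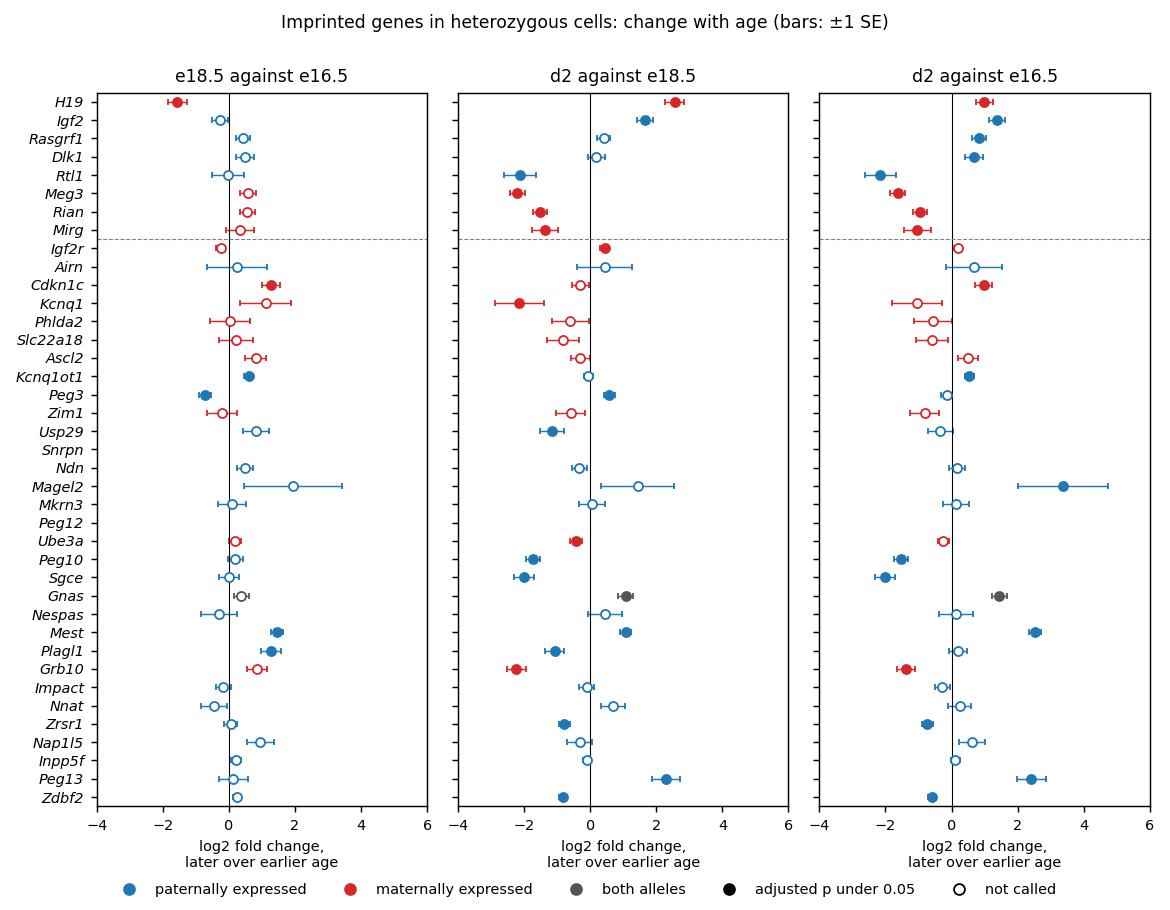
Log2 fold change of each imprinted gene in heterozygous cells, later over earlier age, for the 3 pairs of ages (points, with bars of 1 SE; filled where the adjusted p was under 0.05). H19 and Igf2 lie right of 0 and Rtl1, Meg3, Rian and Mirg left of it in the d2 panels.

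Between e16.5 and e18.5 the rises were those of Mest (2.75-fold, log2 fold change 1.46, adjusted p = 6.74e-06, edgeR), Plagl1 (2.41-fold, adjusted p = 0.00653), Cdkn1c (2.41-fold, adjusted p = 0.00208) and Kcnq1ot1 (1.51-fold, adjusted p = 0.00545). H19 fell 2.95-fold (log2 fold change -1.56, adjusted p = 0.000458), and all 3 e18.5 libraries lay below every e16.5 one. Peg3 fell 1.66-fold (adjusted p = 0.0057), a call that ended without heterozygous e16.5 replicate 1 (adjusted p = 0.0764). Without heterozygous e16.5 replicate 3, the library with the highest Grb10, Meg3, Rian and Dlk1 of its group, 10 genes passed in place of 6. The share of all genes that passed without that library was not read, so the change cannot be called particular to the imprinted genes.

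Between e18.5 and d2 the H19-Igf2 cluster rose and most of the Dlk1-Meg3 cluster fell. H19 rose 5.88-fold (log2 fold change 2.56, adjusted p = 5.73e-08, edgeR) and Igf2 3.14-fold (1.65, adjusted p = 1e-05), both without overlap between the ages. Meg3 fell 4.61-fold (log2 fold change -2.20, adjusted p = 6.79e-08) and Rtl1 4.37-fold (-2.13, adjusted p = 0.000737). Rian (-1.52) and Mirg (-1.36) fell too, while Dlk1, of the same cluster, did not pass (0.19, adjusted p = 0.562). Outside these clusters Peg13 rose 4.86-fold from 2.46 to 2.65 CPM at e18.5 to 5.63 to 16.9 CPM at d2, and Mest rose 2.10-fold. Grb10 fell 4.72-fold (adjusted p = 4.6e-06), from 1920 to 2169 CPM to 257 to 643 CPM, and Sgce, the sarcoglycan gene beside Peg10, fell 4.04-fold. Peg10 itself fell (log2 fold change -1.73), as did Plagl1 (-1.07).

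Across the whole span from e16.5 to d2, Mest rose 5.77-fold (log2 fold change 2.53, adjusted p = 3.01e-11, edgeR), from 54.5 to 63.9 CPM at e16.5 through 122 to 233 CPM at e18.5 to 316 to 382 CPM at d2, with no overlap between ages. Peg13 rose 5.34-fold, Gnas 2.73-fold and Igf2 2.61-fold, and Rasgrf1 rose by 0.83 on the log2 scale (adjusted p = 0.00186). Rtl1 fell 4.44-fold, Sgce 4.04-fold, Meg3 3.09-fold and Peg10 2.90-fold. The stroma sum of the heterozygous libraries was 249 to 428 CPM (e16.5), 404 to 453 (e18.5) and 252 to 351 (d2), and the germ cell sum was 5464 to 6459 CPM, 4410 to 5840 and 3546 to 3935 in the same order. The part of the mix of cells in the age changes was not tested.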

How the data were processed

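The deposited tables hold raw counts per gene symbol and repeat name for each library, 1 table per age. The submitters' processing notes name Bowtie, STAR, featureCounts and edgeR and the genome build mm9 (mouse), and their roles and settings are not given in the sources used here. Strand and the treatment of reads in several places are not stated. Repeat rows (1217 names) were kept out of library sizes. The tables shared 23853 gene symbols.

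Genotypes were compared within an age by the robust quasi-likelihood F test of edgeR 4.0.16 (R 4.3.3), after filterByExpr (10 counts, 15 in total) and TMM scaling, with Benjamini-Hochberg adjustment over all genes tested and a threshold of 0.05. A fit of all 20 libraries on the shared symbols tested differences between ages and gave the printed CPM. The code was tested on simulated data with known changes. Exon lengths came from a GRCm38 annotation, so levels per kb are approximate for mm9 counts. Promoters are RefSeq GRCm38.p6 and no coordinate of the files' build was used.

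The members, their classes and the other lists were chosen with earlier results of these data known. Genes are named by rule: called genes and paternally methylated clusters by library, and the gene of highest CPM in each other cluster by group means. The rule also names 4 rises and 4 falls per age pair, and 3 genes of the imprint list. Plagl1 and Nap1l5 by library, and the mean over ages, were added after values were seen. Tried as alternatives were all ages in 1 fit, a replicate block, DESeq2 1.42.0, scaling by median ratios, a 1 CPM filter or none, and leaving out each library. Of the repeat rows, only RMER4B was read, as a level. The separate tables of repeat families were not used here.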

Additional observations from a re-analysis of the deposited data

Results flagged for a closer look

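In 4 of the 68 groups of 4 libraries checked at d2 (34 genes in each genotype), 1 library stood apart from the other three, with a gap to its neighbour, as a share of the group's range, past Dixon's 95% critical value. Chance alone does so in about 1 in 20 groups. Cdkn1c held 65.7 CPM in knockout replicate 2, where the next library held 32.9 CPM, and this is the knockout library with 101 CPM of Tex15. Peg10 held 243 CPM in heterozygous replicate 4, next to 169 CPM. Zim1 held 5.99 CPM in heterozygous replicate 3, next to 3.04 CPM. Zrsr1 held 28.7 CPM in heterozygous replicate 1, below the next library at 53.3 CPM.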

How the results depend on the processing

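Of the counts of called genes under alternatives, 140 stayed within 1.5 times the reported count and 19 moved. Where the reported count was 0, as in most knockout comparisons, staying means only that 0 passed again. The knockout count at e18.5 stayed in 5 settings and moved in 7. At e18.5, 0 genes passed in the fit of all ages (3 in the fit of that age) and 0 to 1 without 1 library. At e16.5, 0 to 1 passed without 1 library. At d2, 2 passed with DESeq2 (of all genes 770 of 15340), 1 in the fit of all ages (of all genes 770 of 18619) and 0 to 1 without 1 library. For the d2 effect against that at e16.5, 1 passed with DESeq2 and 0 to 1 without 1 library. For the mean effect over ages, whose alternatives were all chosen after seeing the data, 2 passed with DESeq2 and 1 to 2 without 1 library. Heterozygous e18.5 against e16.5 gave 6 to 10 without 1 library, and the shares of all genes in those fits were not read. Without 1 library the log2 fold change of Cdkn1c ran from -0.12 to 0.061 at e16.5 and -0.40 to 0.14 at d2, and that of Zim1 from -0.091 to 0.42 at d2. The cause was not tested. No called gene changed sign in the settings tried, while 11, 16 and 15 uncalled ones did at e16.5, e18.5 and d2. Another scaling moved the median of all genes by under 0.01.

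The deviations of same-numbered libraries correlated at -0.25 to 0.079, 0.053 to 0.11 and -0.19 to 0.053 at the 3 ages. At no age was every pair over 0.1, so the numbers were not taken as pairs, although at e18.5 each library correlated best with its own number, a hint from the data and not from the design. The replicate block moved the calls over all genes from 422 to 599 at e18.5 and from 430 to 235 at d2. With the replicate block 0 genes passed at e16.5, 4 at e18.5 (Plagl1 added, adjusted p = 0.0428) and 0 at d2.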
